A study of Cinachyrella cavernosa with 3 samples.

Results

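In the marine demosponge Cinachyrella cf. cavernosa, 159 coding sequences were listed with at least 50 reads in the tissue taken before a wound was cut, and were listed neither in the tissue taken during regeneration nor in that taken after it. They were chosen by this rule from the deposited tables, out of 3229 coding sequences listed in any library and 1010 listed before the wound with at least 50 reads. The share of the 1010 that the rule takes was 15.7%, and this share is a property of the choice and not a finding. The study sequenced messenger RNA of 3 libraries, 1 per stage: unwounded tissue, which was its control, tissue during regeneration and tissue after regeneration. All sponges had been kept in aquaria in natural sea water and fed before the experiment, and wounds that removed a part of the body imitated fish bites, per the labels' protocols. The sources used here give neither the times of sampling nor the number of animals behind a library, and the series states that it had no replicates.

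Sponges are animals without organs, in which a wound is closed and rebuilt by mobile stem cells called archaeocytes and by choanocytes, the flagellated feeding cells, together with the flat cells of the body surface. Unwounded tissue of a sponge therefore holds a standing mixture of feeding, lining, skeleton-making and stem cells, whose proportions can shift as a wound heals. In bulk tissue, fewer cells of a type and less RNA per cell cannot be told apart. The tables identify each coding sequence only by a CDS number and a Unigene number (a Unigene is an assembled transcript). The identifiers carry no gene names and no sequences were used here, so no coding sequence below is given a function, a cell type or a printed sequence, and the labelled tissue could not be checked against markers.

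The table of unwounded tissue held 773142 reads over 1928 coding sequences, that of tissue during regeneration 1062098 over 1769, and that of tissue after regeneration 965464 over 2127. Each count was even, so that a read pair appears as 2 reads, and counting intervals were taken on pairs. With 1 library per stage there is no spread between samples, and no difference between stages was tested. Absence from a table is not taken as a count of 0, because the sources used here do not give the rule by which a sequence was listed. Of the 1010 sequences that reached 50 reads in unwounded tissue, 34.7% were absent from the table during regeneration and 18.3% from that after it, the before-only sequences included.

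The rule took only before-only coding sequences with at least 50 reads, which sets the lower end of their counts. Together they held 24466 reads, which was 3.16% of the reads before the wound (exact binomial 95% interval 3.11 to 3.22, counting error only). The lowest had 50 reads, the median 90 and the highest 1174. Of the 159, 86 had 50 to 99 reads, 45 had 100 to 199, 19 had 200 to 399, 5 had 400 to 999 and 4 had 1000 or more. By comparison, the 851 coding sequences that had at least 50 reads before the wound and were also listed in another library had a median of 176 reads and reached 56768. The 5 leading before-only sequences held 21.5% of the reads of their group. At the lower limit of the rule, 6 sequences had 50 reads, among them CDS_12276_Unigene_18917, CDS_43213_Unigene_67655 and CDS_45600_Unigene_71370, and 10 more listed before the wound only fell just outside it with 48 reads, among them CDS_25022_Unigene_38847, CDS_31364_Unigene_48915 and CDS_33484_Unigene_52234. Without the limit, 532 of the 1928 sequences listed before the wound (27.6%) were listed there only, and the 373 of them under 50 reads are not described here.

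**Figure D1:**
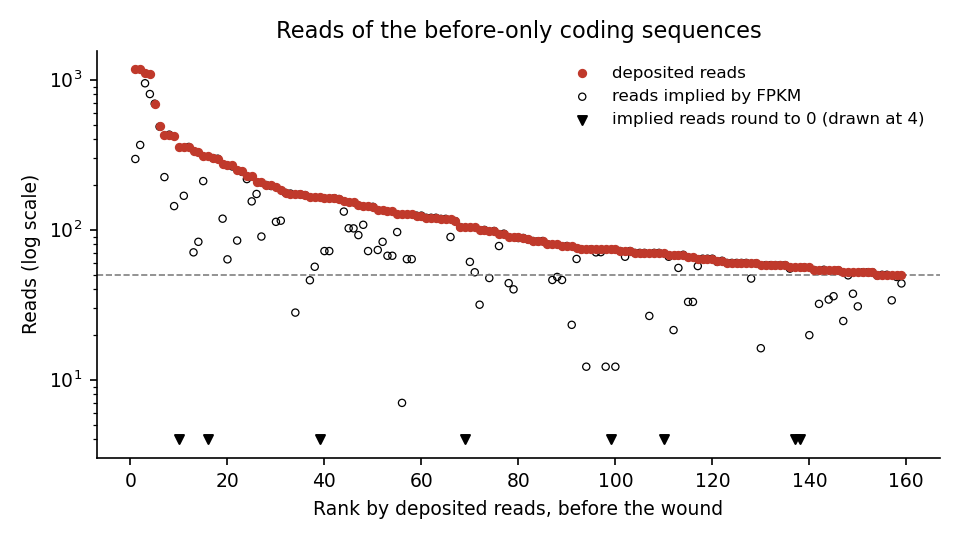
Reads of each of the 159 before-only coding sequences in the library before the wound, on a log scale, against rank by reads. Filled points are deposited reads, open points are the reads implied by the deposited FPKM, triangles mark 8 sequences whose implied pairs round to 0, and the dashed line is the limit of 50 reads. The 4 sequences with over 1000 reads stand above the rest, and open points below filled ones show sequences whose reads FPKM gave in part to other sequences.

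The 4 most abundant by reads were all long. CDS_44789_Unigene_70052 (1119 bases) had 1174 reads, or 587 pairs (exact Poisson 95% interval 540.5 to 636.5), before the wound and was listed at neither later stage. CDS_44788_Unigene_70049 (996 bases), the sequence with the preceding CDS number, had 1172 reads, or 586 pairs (539.5 to 635.4). These sequences had nearly equal counts and FPKM values of 443 and 634. Their FPKM kept only 25.2% and 31.3% of their pairs, so by FPKM most of their reads belonged to other sequences. CDS_57448_Unigene_89762 (819 bases) had 1116 reads and an FPKM of 2092, which kept 84.8% of the pairs. CDS_56288_Unigene_87950 (942 bases) had 1096 reads and an FPKM of 1483, which kept 73.2%.

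Further down, some of the abundant sequences held reads of their own. CDS_57019_Unigene_89057 (1005 bases) had 692 reads, or 346 pairs (exact Poisson 95% interval 310.5 to 384.4), at an FPKM of 1181 before the wound. Its FPKM kept 100.0% of its pairs, so it showed no sign of a copy, and it had the highest count among the before-only sequences that kept at least 99%. CDS_6851_Unigene_10610 (300 bases) followed with 494 reads and kept 98.4% of its pairs. CDS_21822_Unigene_33919 (1029 bases) and CDS_48169_Unigene_75377 (987 bases) each had 430 reads, of which FPKM kept 52.1% and 100.0%. CDS_21833_Unigene_33934 (996 bases) had 422 reads and kept 34.0%. CDS_14411_Unigene_22252 (975 bases) had 358 reads and an FPKM of 0, so that none of its reads was assigned to it. None of these sequences was listed during or after regeneration.

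Level per length put other sequences first. FPKM scales fragments by sequence length and by the fragments of the library. The deposited values appear to use a length shorter than the listed one, which raises short sequences most. By FPKM CDS_6851_Unigene_10610 led at 6115 before the wound, rank 75 in that library. It also had the most reads per kilobase, 1647, ahead of CDS_57448_Unigene_89762 with 1363 and CDS_44788_Unigene_70049 with 1177. CDS_39993_Unigene_62627 (306 bases, 248 reads) came next by FPKM at 2897, followed by CDS_32974_Unigene_51421 (309 bases, 198 reads) at 2275, and then by CDS_57448_Unigene_89762 and CDS_56288_Unigene_87950. In reads per kilobase of listed length CDS_39993_Unigene_62627 had 810.5 and CDS_32974_Unigene_51421 had 640.8. Both lay below CDS_57448_Unigene_89762 and CDS_56288_Unigene_87950 by that measure. The 3 leading sequences by FPKM are among the shortest of the group, and their FPKM kept 98.0% to 98.8% of their pairs. Of the 159, 1 was among the 100 highest FPKM values of the unwounded library and 4 were among its 100 highest counts. Their median FPKM was 211, against 715 for the 851 sequences listed in another library as well. In reads per kilobase the medians were 165.3 and 375.4.

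The before-only coding sequences were longer than those also listed elsewhere. Their median length was 693 bases (lower quartile 483, upper quartile 945), against 399 bases (339 and 538.5) for the 851 that were listed in another library as well. Of the 159, 118 (74.2%) were over 500 bases, against 255 of 851 (30.0%). Sequences of at most 350 bases made up 16 of the 159 (10.1%), against 255 of the 851 (30.0%). The 3 longest were CDS_35838_Unigene_56027 with 1890 bases and 328 reads, CDS_34615_Unigene_54109 with 1731 bases and 136 reads, and CDS_32168_Unigene_50121 with 1677 bases and 98 reads. These lengths are coding lengths, all multiples of 3. Length was not part of the rule, but the limit of 50 reads bears on it, because a long sequence reaches 50 reads at a lower level than a short one.

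The share of sequences that were listed before the wound only moved with length. It was 5.90% of 271 sequences of up to 350 bases, 6.83% of 366 from 351 to 500 bases, 23.1% of 173 from 501 to 700 bases, 41.2% of 80 from 701 to 900 bases and 37.5% of 120 above 900 bases, all with at least 50 reads before the wound. The share moved with reads in the opposite direction, at 25.4% of 338 sequences with 50 to 99 reads, 17.8% of 253 with 100 to 199, 9.95% of 191 with 200 to 399, 3.94% of 127 with 400 to 999 and 3.96% of 101 with 1000 or more. Within a range of reads the order by length remained. Among sequences with 50 to 99 reads, 50.9% of those over 700 bases were before-only, 37.9% of those of 501 to 700 bases and 14.9% of those of up to 500 bases. With at least 200 reads the shares were 29.5% of 78, 4.35% of 69 and 0.735% of 272 in the same order.

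**Figure D2:**
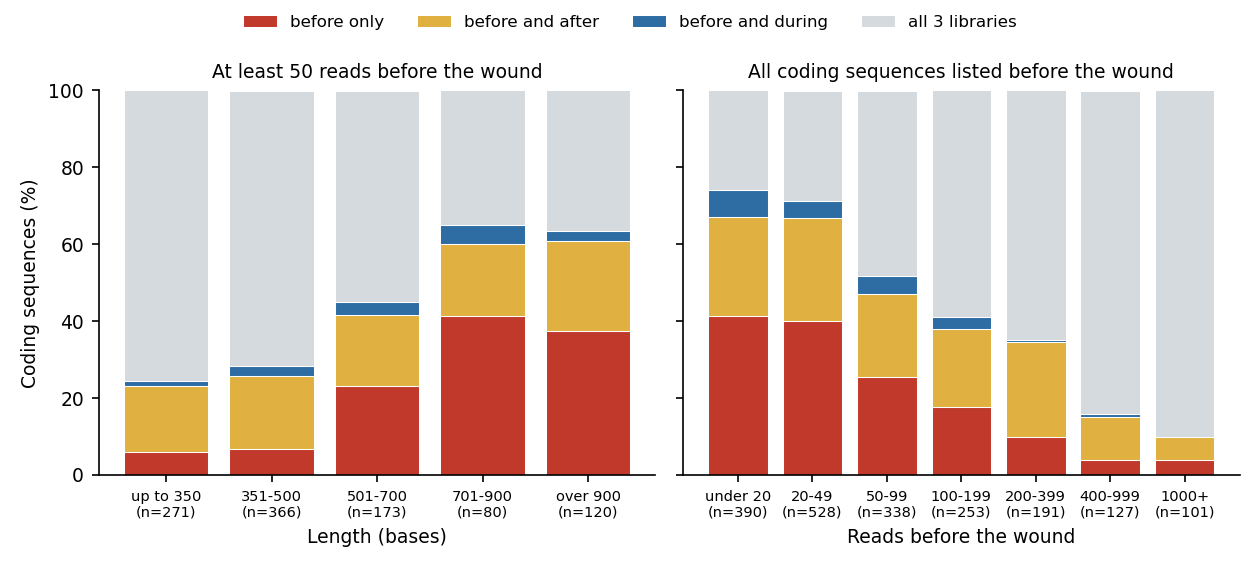
Share of coding sequences listed before the wound only (red), before and after (yellow), before and during (blue) or in all 3 libraries (grey), by length for those with at least 50 reads before the wound (left) and by reads for all 1928 listed before the wound (right), with the number of sequences under each bar. The red share is 5.90% at up to 350 bases and 37.5% above 900 bases, and it is 25.4% at 50 to 99 reads and 3.96% at 1000 or more.

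The limit of 50 reads favours long sequences, so the shares were also taken over all 1928 sequences listed before the wound, without that limit, in ranges of reads per kilobase. Under 100 reads per kilobase the shares differed less by length than in the higher ranges, in the same order. There 51.9% of the 129 sequences over 700 bases were listed before the wound only. It was 49.7% of 159 from 501 to 700 bases and 41.1% of 611 of up to 500 bases. Between 100 and 200 reads per kilobase the shares were 46.8% of 62, 33.9% of 59 and 16.5% of 230. Between 200 and 400 they were 28.6% of 42, 23.7% of 38 and 6.86% of 175. At 400 or more they were 30.6% of 36, 1.67% of 60 and 0.917% of 327. Among sequences that reached 50 reads and kept at least 99% of their pairs by FPKM, the before-only shares were 35.9% of 78 over 700 bases, 28.2% of 78 from 501 to 700 bases and 5.11% of 313 of up to 500 bases.

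The sequences listed in a single later library were long as well. By the same rule, 163 coding sequences were listed during regeneration only, which was 18.5% of the 879 with at least 50 reads there, and 128 were listed after regeneration only, 12.3% of 1043. Their median lengths were 654 and 801 bases, against 408 and 402 bases for sequences with at least 50 reads in those libraries that were also listed elsewhere. The before-only group held 3.16% of the reads of its library, the during-only group 2.85% (exact binomial 95% interval 2.80 to 2.89) and the after-only group 1.55% (1.51 to 1.58). The leading during-only sequence was CDS_9704_Unigene_14925 (651 bases) with 1384 reads and an FPKM of 1601, and the leading after-only sequence was CDS_25014_Unigene_38835 (2286 bases) with 518 reads and an FPKM of 255. The before-only group was the one without very long members: its longest had 1890 bases, against 5346 bases during regeneration only and 3942 bases after regeneration only.

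**Figure D3:**
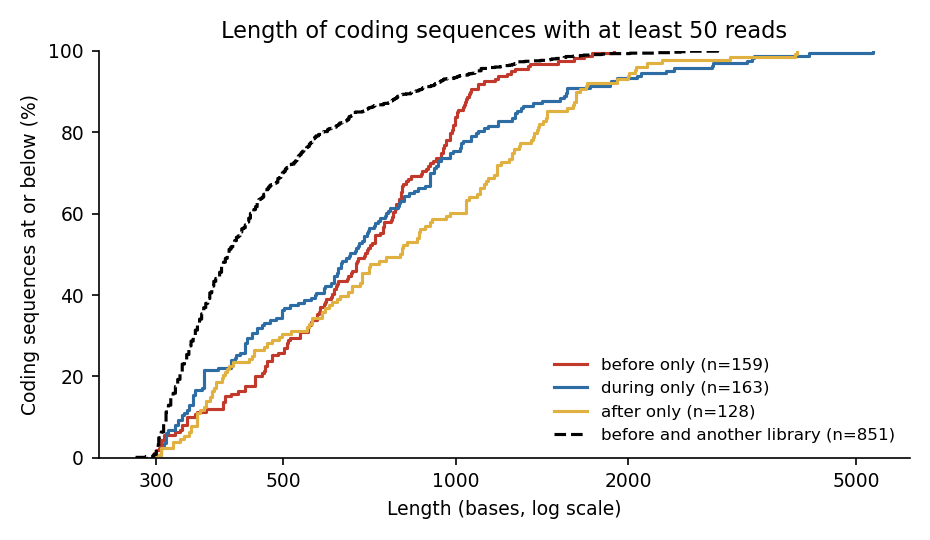
Cumulative share of coding sequences by length (log scale) for those with at least 50 reads listed only before the wound, only during or only after regeneration, and, dashed, for those that reached 50 reads before the wound and were also listed in another library. The 3 single-library groups, with medians of 693, 654 and 801 bases, lie right of the dashed line, whose median is 399 bases, and the before-only line is steep close to 1000 bases.

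A stretch of lengths close to 1000 bases held many of the abundant before-only sequences. This window was chosen after the values were seen, so its counts are a description. From 900 to under 1100 bases lay 32 of the 159 before-only sequences (20.1%), against 22 of the 163 listed during regeneration only (13.5%), 10 of the 128 listed after regeneration only (7.81%) and 33 of the 851 listed before the wound and elsewhere (3.88%). The contrast with the 851 is not matched for length and in part repeats the length difference given above, with medians of 693 and 399 bases. Among the 120 sequences above 900 bases that reached 50 reads in unwounded tissue, 45 were before-only. The window itself held 32 before-only sequences and 33 of the others, so the gap is smaller among long sequences. The contrast was wider at 200 reads, where the median lengths also lay further apart, at 969 and 408 bases. Of the 28 before-only sequences with at least 200 reads, 14 (50%) lay in the window, against 14 of 391 (3.58%) of the sequences of that abundance in unwounded tissue that were also listed elsewhere. The window held 12 of the 47 such sequences (25.5%) listed during regeneration only and 0 of the 14 listed after regeneration only. Of the 10 sequences with the most reads, 7 lie in it: CDS_44788_Unigene_70049, CDS_56288_Unigene_87950, CDS_57019_Unigene_89057, CDS_21822_Unigene_33919, CDS_48169_Unigene_75377, CDS_21833_Unigene_33934 and CDS_14411_Unigene_22252. Their rank rests on counts that include shared reads: as given above, FPKM kept from 0.0% (CDS_14411_Unigene_22252) to 100.0% (CDS_57019_Unigene_89057) of their pairs. Whether these sequences are related could not be read from the tables.

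Part of the before-only sequences shared reads with other sequences, as did part of the rest. The deposited count appears to give a shared read to each sequence it matches, while FPKM divides it, so the share of pairs kept by FPKM shows how much of a count is a sequence's own. Of the 159, 81 (50.9%) kept at least 90% of their pairs, 37 kept 50% to under 90%, 34 kept under 50% with an FPKM above 0, and 7 had an FPKM of 0. Of the 851 also listed elsewhere, 523 (61.5%) kept at least 90%, 100 kept 50% to under 90%, 207 kept under 50% with an FPKM above 0, and 21 had an FPKM of 0. Strong sharing was about as frequent in both: 25.8% of the before-only sequences and 26.8% of the others kept under 50%, an FPKM of 0 included. The median before-only sequence kept 95.4% of its pairs, and 89.4% when the share was estimated from quantiles within length bins, so the number at or above 90% depends on the estimate. Above 400 bases, where the estimate is most exact, 45.9% of 135 before-only sequences and 53.9% of 423 of the others kept at least 90%. Over the group, 8201 of 12233 pairs (67.0%) were assigned to the before-only sequences themselves, against 82.2% for those also listed elsewhere. These shares describe 1 library, and coding sequences are not replicates. The lowest shares were those of the sequences with an FPKM of 0, which by identifier begin with CDS_14411_Unigene_22252, CDS_23359_Unigene_36261 (510 bases, 56 reads), CDS_24107_Unigene_37415 (552 bases, 104 reads), CDS_28526_Unigene_44469 (501 bases, 74 reads) and CDS_38285_Unigene_59948 (573 bases, 56 reads).

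Some before-only sequences had the same length and the same count as another. There were 8 such sets, which comprised 18 of the 159, and with each set counted once 149 sequences were left. The largest set had 4 members of 447 bases with 74 reads each: CDS_14995_Unigene_23238, CDS_28524_Unigene_44467 and CDS_28527_Unigene_44470 each kept 16.4% of their pairs, while CDS_18168_Unigene_28222 kept 100.0% and so gave none of its reads to them. The pair of 723 bases with 80 reads did not divide its reads either, with 100.0% kept by CDS_39826_Unigene_62356 and 57.7% by CDS_51026_Unigene_79774. CDS_22880_Unigene_35541 and CDS_2705_Unigene_4179, both of 669 bases with 166 reads, kept 27.8% and 34.1%. CDS_24578_Unigene_38113 and CDS_24582_Unigene_38117, both of 429 bases with 162 reads, each kept 44.4%. Pairs with the same FPKM kept equal shares. Summed over the pair these came to 100.0% at 801 bases, 99.5% at 339 bases and 100.0% at 777 bases. At 429 bases the sum was 88.9%, so part of those reads went to other sequences. In the pair of 552 bases with 104 reads CDS_12822_Unigene_19804 kept 100.0% and CDS_24107_Unigene_37415 had an FPKM of 0.

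For 3 before-only sequences, a sequence with the same length, count and FPKM before the wound was listed after regeneration. CDS_29889_Unigene_46636 (1170 bases) had 208 reads and an FPKM of 128 before the wound, as did CDS_37690_Unigene_58982, which had 90 reads after regeneration. CDS_37690_Unigene_58982 kept 44.5% of its pairs after regeneration, and each of the 2 kept 43.3% before the wound. CDS_53028_Unigene_82920 (507 bases, 144 reads) matched CDS_41526_Unigene_64990, which had 40 reads after regeneration, and CDS_44621_Unigene_69783 (555 bases, 104 reads) matched CDS_44620_Unigene_69780, which had 34 reads after regeneration. In both of these couples the member listed after regeneration kept 50% of its read pairs there, and both members kept 50% before the wound. The listed member of each couple thus kept a like share of its reads at both stages, with its partner unlisted after regeneration and listed before the wound. None of the 3 matching sequences was listed during regeneration. These are 3 of the 78 before-only sequences that kept under 90%. One more match, of CDS_429_Unigene_657 with CDS_23495_Unigene_36470 (366 bases, 78 reads), kept 99.8% and shows no shared reads.

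Some neighbours in the numbering were both before-only. Of the 159, 29 (18.2%) had a listed sequence with an adjacent Unigene number, and of the 851 also listed elsewhere 163 (19.2%) had one. For 17 before-only sequences (10.7%) the neighbour was itself before-only with at least 50 reads, and for 10 (6.29%) it was listed during or after regeneration. These 17 form 8 groups of adjacent numbers, and 15 of them kept under 90% of their pairs, so much of the count can be the same reads counted for both neighbours. Among the 851, 6 (0.705%) had a before-only neighbour with at least 50 reads and 146 (17.2%) had a neighbour listed during or after regeneration. CDS_59551_Unigene_93045 (996 bases, 300 reads) and CDS_59552_Unigene_93046 (894 bases, 164 reads) were neighbours and both before-only, and FPKM kept 100.0% of the pairs of the one and 0.0% of the other. CDS_6599_Unigene_10193 (987 bases, 268 reads) lay beside CDS_6598_Unigene_10192, which had 4 reads during regeneration, against 64 before the wound. CDS_39693_Unigene_62140 (954 bases, 250 reads) lay beside CDS_39694_Unigene_62141, with 124 reads after regeneration, against 254 in unwounded tissue. CDS_26072_Unigene_40574 (200 reads) and CDS_56325_Unigene_88014 (192 reads) lay beside CDS_26071_Unigene_40573 and CDS_56326_Unigene_88015, which were listed before the wound only with 28 and 16 reads.

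The missing listing was set beside the reads that each sequence would hold at its level before the wound. Effective library size (library total times a TMM factor, a scaling that makes the typical shared sequence equal) was 0.86 of the unwounded library during regeneration and 1.14 of it after regeneration. By library totals it was 1.37 and 1.25, which turns the direction during regeneration. At an equal level the 159 sequences would have held 21047 reads during regeneration and 27789 reads after it. By library totals these would be 33610 and 30552 reads. On the TMM scale the reads of a single sequence would run from 43 to 1010 reads during regeneration, with a median of 77.4, and from 56.8 to 1333 reads after it, with a median of 102.

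The lowest count at which a sequence was listed differed with length. Before the wound it was 6 reads up to 350 bases, 6 from 351 to 500, 10 from 501 to 700, 14 from 701 to 900 and 20 above 900 bases. It was 4, 8, 10, 16 and 20 reads in these classes during regeneration, and 4, 6, 10, 16 and 20 after it. Per kilobase the lowest listed value kept to a narrow range, from 16.3 to 21.2 reads before the wound, 13.2 to 22.7 during regeneration and 13.3 to 21.1 after it. All counts expected of the before-only sequences lie above these limits, which follows from the minimum of 50 reads in the rule that chose them and says nothing of why they were not listed.

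**Figure D4:**
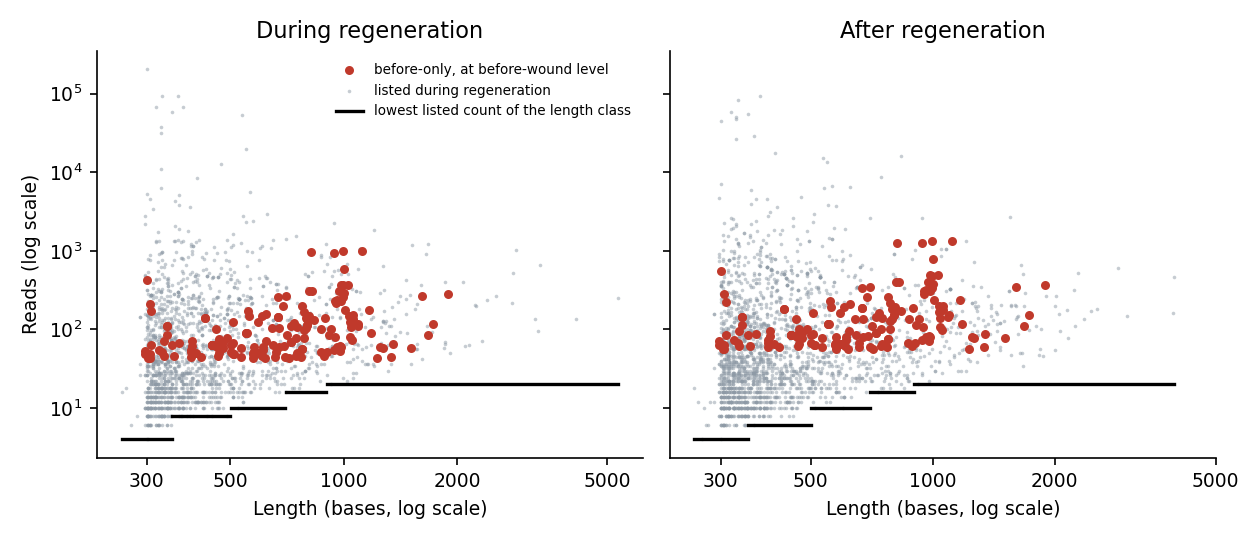
Reads that each of the 159 before-only coding sequences would hold at its before-wound level (red) against length, beside all coding sequences listed during (left) and after (right) regeneration (grey), both axes on log scales. Black lines mark the lowest listed count of each length class, from 4 reads at up to 350 bases to 20 reads above 900 bases. The red points lie above the lines because the sequences were chosen for at least 50 reads before the wound.

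The fragments behind the deposited FPKM values outnumbered those of the listed sequences in each library. The fragments behind FPKM numbered an estimated 359265 in the unwounded library, 486178 in that during regeneration and 436333 in that after it, and listed sequences accounted for 88.1%, 92.5% and 91.3% of them. That left about 42793 fragments outside the table before the wound, where the before-only sequences are listed. It left 36237 outside the table during regeneration and 37804 outside the table after it. The before-only sequences had 8201 fragments of their own before the wound. At an equal level these would be 7055 fragments during regeneration and 9315 after it, in size 19.5% and 24.6% of the fragments outside those tables. Scaled by the fragment totals instead, the sizes would be 30.6% and 26.3%. The fragments outside a table belong to all unlisted sequences together, so these sizes do not show whether any came from the before-only sequences. The totals rest on the fitted line and are approximate, and the part of the listing rule in the missing listings was not tested.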

How the data were processed

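Per the labels' protocols, TRIzol RNA went into stranded, paired-end mRNA libraries (Illumina TruSeq). The authors deposited 1 table per library, with read counts (whole numbers, not normalized), lengths and FPKM values per coding sequence, per the file headers. The submitters' processing notes name RSEM, FastQC and Trimmomatic. Neither assembler, aligner nor listing rule is stated in the sources used here.

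The 159 members, the classes and the quantities described were chosen with earlier results of these data known. The sequences named are the 10 with most reads, the 5 highest FPKM, the 3 longest, the 3 with most reads per base, up to 3 on either side of 50 reads, the 3 largest identical sets, the 5 lowest shares kept, 5 adjacent pairs and the leader of each other single-library group. CDS_12822_Unigene_19804, CDS_39826_Unigene_62356, CDS_51026_Unigene_79774, the 3 sequences with a listed match and those matches were named after their values were seen.

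A line of pairs over FPKM against length was fitted by quantile regression at 0.2 (statsmodels 0.14.6, at least 400 bases and 50 reads). Its slope estimates the fragments behind FPKM, and FPKM times the line the pairs assigned. On simulated before-wound values of 951 coding sequences, without added noise, it returned the total of 400000 and each share kept within 0.012 percentage points, which checks the arithmetic only. Quantiles within length bins had been planned first, but gave shares of up to 1.388 before the wound, against 1.0 for the line, so the line was used. Below 400 bases the line is up to a few percent low. TMM factors (edgeR 4.0.16, over 887 coding sequences listed in all 3 libraries) were 1.206 before, 0.755 during and 1.097 after. No test between stages was run. Intervals (95%) cover counting error only. Alternatives concerned the read limit, identical sets, FPKM in place of counts and the scaling.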

Additional observations from a re-analysis of the deposited data

How the results depend on the processing

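No paired analysis was possible because each stage has 1 library, and no library could be left out. The number of before-only sequences was 159 and followed the read limit: 371 at 20 reads, 73 at 100, 28 at 200 and 532 with no limit. With a limit of 25 pairs as assigned by FPKM it was 119. The rest had fewer pairs assigned, some by a narrow margin. CDS_12276_Unigene_18917 (306 bases) had 24.7 pairs assigned, at a length where the line is low, so not all fell out through shared reads. Chosen after seeing the data, asking only that a sequence be unlisted during regeneration gave 350. The during-only and after-only groups fell to 47 and 14 at 200 reads. The share of before-wound reads, 3.16%, was 2.59% with pairs as assigned by FPKM and 4.29% with no limit. The reads expected at an equal level, 21047 during and 27789 after, were 33610 and 30552 with library totals, 21878 and 28698 with median-of-ratios factors, and 33109 and 29714 with fragment totals. The median length, 693 bases, was 969 bases at 200 reads. The median share kept, 95.4%, was 89.4% with length-bin quantiles. The cause of these shifts was not tested beyond what the settings themselves fix. The 12 alternatives within limits, among them length-bin quantiles and identical sets counted once, stayed within 1.5 times of the counts or within the 95% interval of the values. Depth limits sequences near 50 reads most: 25 pairs carry a 95% interval of 16.2 to 36.9.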
